A study of Mus musculus with 302 samples.

Results

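The 75 livers with the highest and the 75 with the lowest levels of the cyclin genes Ccna2 and Ccnb2, out of 302, were compared over all other genes measured. Ccna2 and Ccnb2, probes averaged per gene, were centred in 4 blocks of mice, divided by their SD over mice and averaged into a score, and the mice were selected on its rank. The blocks combine 2 clusters of the marker gene Eif2s3y (below or above -0.8) with the number in each mouse's label (up to 212, or above). The labels put all mice in 1 group. They were F2 offspring of a cross of C57BL/6J with C3H/HeJ, which are inbred strains, made in both directions, and the labels give no sex, genotype or direction of cross for single mice. High, middle and low livers therefore share all that the labels record. Each mouse had eaten chow with 4% fat to the age of 8 weeks, then a Western-type diet holding 42% fat and 0.15% cholesterol for 12 weeks, and was killed at 20 weeks after 12 h without food. RNA of each liver was hybridised with a pool of equal shares of the RNA of all livers, with 1 array per mouse, so the number of mice limits the precision. Values are log ratios, taken here to be log10 of mouse over pool; that base and direction are likely, but no source states them. A ratio to a pool of the same livers has no zero, so no marker can be called absent, and how the liver markers stood in absolute terms was not tested.

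Cyclins are the regulatory subunits of the cyclin-dependent kinases. Cyclin A2, the product of Ccna2, acts in S phase and at the entry to mitosis, and cyclin B2, the product of Ccnb2, acts in mitosis. Adult hepatocytes rarely divide, but they and the other cells of the liver can re-enter the cycle after tissue loss, injury or inflammation. Genes of S phase are known to be switched on largely by E2F factors. Genes of mitosis are held silent in resting cells by the DREAM complex and switched on by B-MYB and FOXM1, often through a promoter element named CHR that lies near CCAAT boxes.

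The 2 genes that chose the mice moved together. Over all 302 mice, after centring within blocks, their values had a Pearson correlation of 0.925, where both come from the same arrays. Ccna2 ran from -0.0027 to 0.514 with a median of 0.155 in the high livers, and from -0.343 to -0.0875 with a median of -0.222 in the low ones. Ccnb2 ran from 0.0020 to 0.563 (median 0.163) in the high and from -0.434 to -0.101 (median -0.270) in the low livers. By the choice of mice the groups do not overlap in either gene. The medians lay 2.38-fold apart for Ccna2 and 2.71-fold apart for Ccnb2. The score had medians of 1.24 and -1.04. The last mouse taken into the high group had a score of 0.66 and the first one left out 0.63, against -0.690 and -0.687 at the low end. The scores are thus continuous, and the groups are ranges, not types. These values describe how the groups were made and were not tested.

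**Figure D1:**
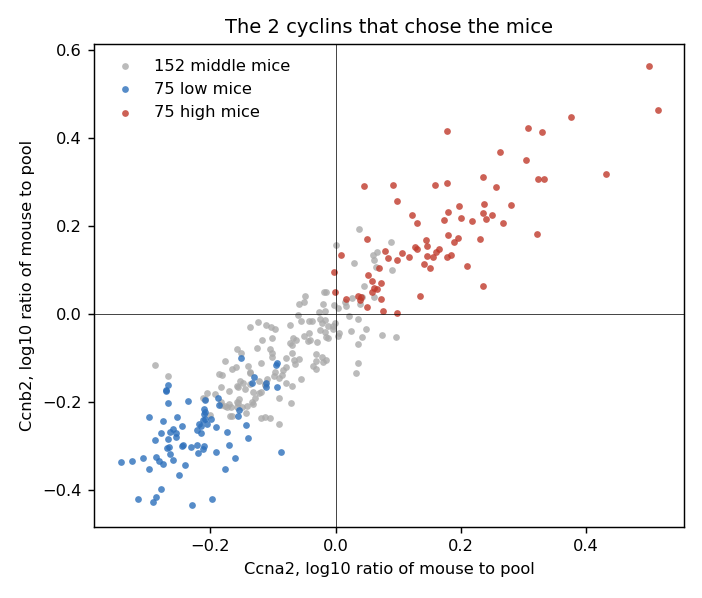
Ccna2 (x axis) against Ccnb2 (y axis) in each of 302 livers, both as log10 ratios of mouse to pool; red, 75 high mice, blue, 75 low mice, grey, 152 middle mice. The points form 1 continuous band, and some middle mice lie among the chosen ones because the score was centred within blocks.

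The promoters of 4 mitotic genes are shown because they carry the element by which such genes are known to be controlled together. They are Ccnb2 itself, Racgap1 (a regulator of the contractile ring), Cdc20 (an activator of the anaphase-promoting complex) and Cdca8 (a chromosomal passenger protein). All but Ccnb2 were taken in order of p among the higher cell cycle genes. Genes without the CHR in the printed stretch, or without a single promoter window, were passed over, so its presence here is by choice. The sequences are from RefSeq on GRCm38.p6, from 120 bases before to 30 bases after the annotated start, on the minus strand. They lie at chr9:70421525-70421674, chr15:99651627-99651776, chr4:118437314-118437463 and chr4:124936888-124937037. Capitals mark TTTGAA, the CHR, and CCAAT, each on either strand.
Ccnb2: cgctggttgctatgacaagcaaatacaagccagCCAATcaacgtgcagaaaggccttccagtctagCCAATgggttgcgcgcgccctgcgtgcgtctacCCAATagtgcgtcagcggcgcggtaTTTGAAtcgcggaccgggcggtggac
Racgap1: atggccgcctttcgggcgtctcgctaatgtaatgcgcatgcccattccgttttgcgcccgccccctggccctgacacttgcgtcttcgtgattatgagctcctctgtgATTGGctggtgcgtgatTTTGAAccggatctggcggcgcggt
Cdc20: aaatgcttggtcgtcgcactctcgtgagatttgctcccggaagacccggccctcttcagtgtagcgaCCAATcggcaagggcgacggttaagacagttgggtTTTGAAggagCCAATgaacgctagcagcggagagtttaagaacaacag
Cdca8: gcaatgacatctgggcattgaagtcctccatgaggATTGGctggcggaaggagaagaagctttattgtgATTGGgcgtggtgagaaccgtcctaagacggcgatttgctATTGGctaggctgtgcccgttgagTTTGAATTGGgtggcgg
In Cdca8 the last CCAAT match overlaps the CHR. These letters were also counted in RefSeq promoter windows, from 250 bases before to 50 after a start, with no test. The CHR was in 59.4% of 32 windows of mitotic genes that were higher in the high livers (29 of 34 genes had a window), in 18.5% of 27 windows of higher DNA replication genes and in 17.9% of all 32851 windows. CCAAT was in 65.6%, 59.3% and 37.4%, and both together in 46.9%, 14.8% and 6.95%. The E2F motifs TTCCCGC and TTGGCGC, on either strand, were in 18.8% of the mitotic windows, 44.4% of the replication windows and 6.81% of all windows. Cell cycle genes of all lists that were higher had 96 windows, and those neither higher nor lower had 43. E2F motifs were in 30.2% of both sets, so their share did not set the higher genes apart. The CHR was in 31.2% and 20.9% of these windows, and CCAAT in 63.5% and 53.5%. A match of letters is a description of these windows and not a site.

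Differences between the high and the low livers were many and mostly small. Of 21705 features (genes, or probes with no gene symbol here), 47.6% were called at an adjusted p under 0.05, 3874 (17.8%) higher and 6464 (29.8%) lower in the high livers. The p-values are limma's, two-sided, with the 4 blocks as covariates and the Benjamini-Hochberg adjustment over all features. Among the 10813 named genes 50.2% were called, 21% higher and 29.2% lower. The called differences had a median size of 0.0397 in log10, a 1.1-fold change, and 335 of them passed 1.5-fold, 259 higher and 76 lower. The share of calls that were higher depended on how the arrays were scaled. It was 37.5% as deposited, 48.2% after each array was centred and scaled, and 39.0% after quantile normalization. With array spread as a covariate it was 38.5%, and without the 15 widest arrays 36.4%. The median over all features was -0.0068 as deposited and -0.0012 after scaling. The arrays of the low livers had a wider spread over probes (median SD 0.106) than those of the high livers (0.0934), and leaving out the 15 widest arrays gave 4064 (18.7%) higher and 7101 (32.7%) lower features. With the spread of each array as a covariate 4064 features were higher and 6495 lower. Of all pairs of arrays, the most opposed had a correlation of -0.519 over the probes. Mouse and pool carried the same dyes on every array, and the direction was left as it stands.

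Genes of mitosis had the largest share of higher members and the largest median difference of the 9 cell cycle lists. Of 39 genes tested on the list of mitotic chromosomes, kinetochores and spindle, 34 were higher and 2 lower, with a median difference of 0.143 against -0.0068 over all features. The mean of the list ran from -0.0199 to 0.234 in the high livers (median 0.0666) and from -0.146 to -0.0255 in the low livers (median -0.0882), so the 2 groups did not overlap. It was between them in the middle livers, with a median of -0.0359. This list and the others were drawn up with earlier results of these data known. For lists described as having none in a direction between the high and low livers, an unadjusted limma p under 0.05 also gave 0 members there, except for 1 higher bile acid gene. In whole tissue, fewer cells of a type and less RNA per cell cannot be told apart.

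Knstrn, which encodes a kinetochore and spindle protein needed for the parting of chromatids, had the largest difference of all named genes that moved alike in the 4 blocks. Its log10 ratio ran from -0.061 to 0.580 with a median of 0.185 in the high livers and from -0.680 to -0.0102 with a median of -0.408 in the low ones. The ranges overlap only at their ends, and 71 of 75 high livers lay above every low liver. The difference was 0.59 ± 0.0203 (SE, n = 75 and 75), a 3.91-fold change (limma adjusted p = 2.88e-59). Birc5 encodes survivin, a chromosomal passenger protein. It ran from -0.0771 to 0.488 (median 0.166) in the high and from -0.545 to -0.0183 (median -0.309) in the low livers, and 69 high livers lay above all low ones. It was 2.93-fold higher (adjusted p = 3.13e-53). Racgap1 ran from -0.0909 to 0.494 (median 0.157) against -0.519 to 0.0123 (median -0.251) and was 2.54-fold higher (adjusted p = 3.53e-50). Its groups overlap in few mice, with 67 of 75 high livers above all low ones. Plk1, the Polo-like kinase of mitosis, had medians of 0.133 and -0.158 and was 1.97-fold higher (adjusted p = 2.52e-49). Pimreg, a mitotic regulator that is on no list, had medians of 0.124 and -0.289 and was 2.74-fold higher (adjusted p = 7.55e-43), with 67 of 75 high livers above all low ones.

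Mki67 and Top2a, common markers of dividing cells, had smaller differences than these. Mki67 encodes the antigen Ki-67. It ran from -0.0967 to 0.196 (median 0.0282) in the high and from -0.266 to 0.173 (median -0.038) in the low livers, which overlap almost throughout. It was 1.18-fold higher (adjusted p = 2.70e-09), and 67 of 75 high livers lay above the low median. Top2a, the topoisomerase that untangles replicated chromosomes, was 1.16-fold higher over its 2 probes (adjusted p = 1.04e-06). Its probes disagreed, since one had a difference of 0.136 (adjusted p = 2.66e-23) and the other -0.0086 (adjusted p = 0.718). Incenp and Prc1, a chromosomal passenger and a spindle midzone protein, gave 0.012 ± 0.0066 and -0.0076 ± 0.0052 and passed no threshold (adjusted p = 0.126 and 0.222). Bub1, a checkpoint kinase, and Plk4, the kinase of centriole copying, were the 2 mitotic genes that fell, by 0.0562 and 0.0713 (adjusted p = 1.72e-11 and 1.14e-09). Each probe is named by its array annotation, so a weak probe and a gene that moved little cannot be told apart here.

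**Figure D2:**
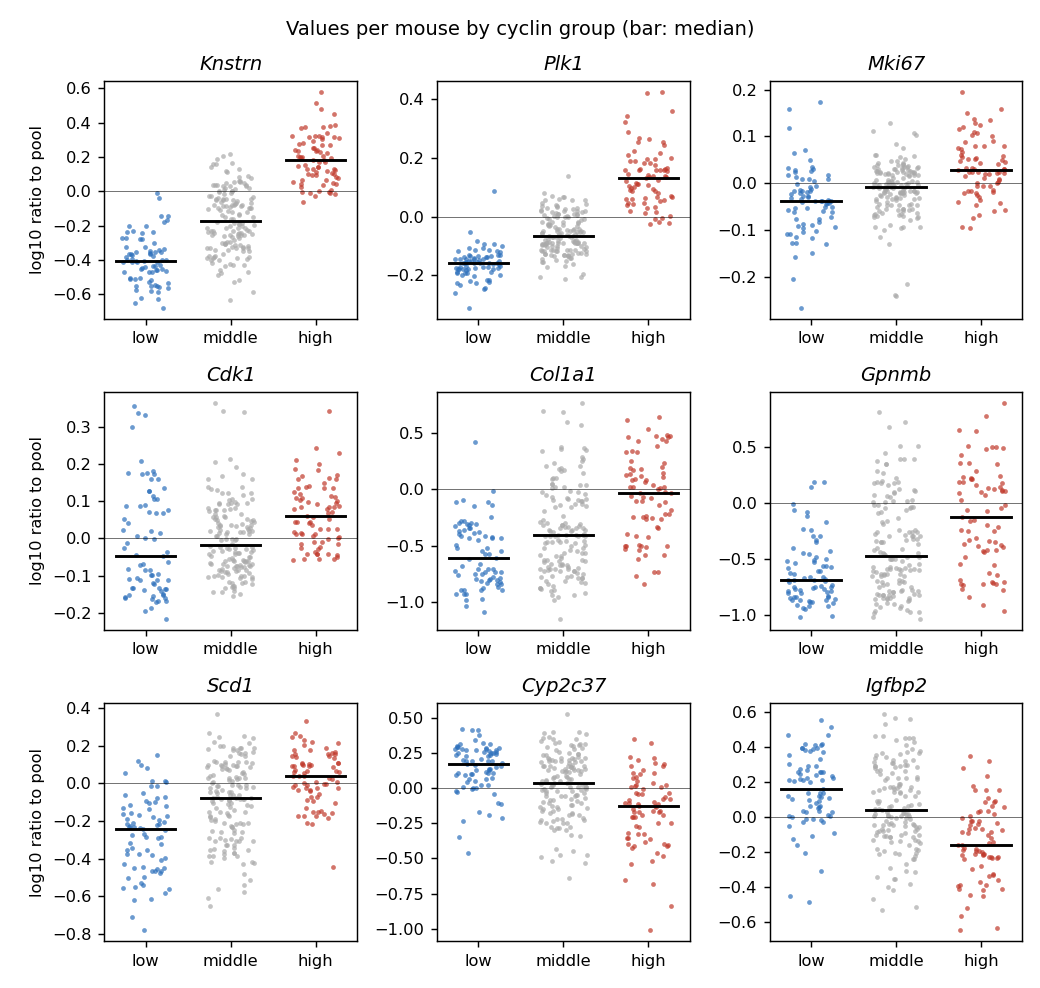
Log10 ratio of mouse to pool (y axes, separate scales) in the 75 low (blue), 152 middle (grey) and 75 high (red) livers for 9 genes; each point is 1 mouse and the bar is the group's median. The high and low livers hardly overlap in Knstrn and Plk1 and overlap widely in Mki67 and Cdk1, and the middle livers have medians between the 2 groups in all 9 genes.

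Genes that drive the exit from mitosis were fewer. Of 8 tested, 3 were higher and none lower. Cdc20 was 1.66-fold higher (adjusted p = 2.41e-44), again with unlike probes, at 0.498, 0.153 and 0.0092. Espl1, which encodes separase, was 1.24-fold higher (adjusted p = 8.06e-26), and Anapc5, a subunit of the anaphase-promoting complex, 1.13-fold (adjusted p = 4.50e-10). Pttg1 encodes securin, which holds separase in check. It ran from -0.699 to 0.356 in the high and from -0.941 to 0.335 in the low livers, and its difference of 0.117 ± 0.0571 passed no threshold (adjusted p = 0.0824). A value under -0.3 was found in 20 high, 20 low and 45 middle livers, so the low state of this gene was as frequent in both groups. Skp2, a subunit of a ubiquitin ligase that clears inhibitors of the cycle, gave 0.0254 ± 0.0151 (adjusted p = 0.158).

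The cyclins and kinases beside the chosen pair went different ways. Of 16 tested, 7 (43.8%) were higher and 3 (18.8%) lower, with a median difference of 0.0102. Over all features 17.8% were higher and 29.8% lower, so the lower share is below that of all features. Pkmyt1, an inhibitory kinase of Cdk1, was the most changed. It ran from -0.263 to 0.323 (median 0.0703) in the high and from -0.224 to 0.0482 (median -0.103) in the low livers, with 44 of 75 high livers above all low ones, and was 1.51-fold higher (adjusted p = 2.55e-24). Cyclin D1, the product of Ccnd1, starts the passage through G1. It had medians of 0.0473 and -0.146 in ranges that overlap throughout and was 1.45-fold higher (adjusted p = 3.59e-06). Ccnd2 and Ccnd3 were 1.08-fold and 1.05-fold higher (adjusted p = 0.00296 and 0.0367). Cks1b, a small subunit of these kinases, was 1.13-fold and the phosphatase gene Cdc25b 1.09-fold higher. The 3 that fell were Cdk6, by 0.0668, Ccne1, by 0.0251, and Cdk4, by 0.0175 (adjusted p = 1.18e-11, 0.000238 and 2.69e-05). Cdk6 rests on 1 of its 2 probes, at -0.125, as the other gave -0.0084 (adjusted p = 0.281). The difference of Ccnd1 was 1.12-fold in the lower and 1.88-fold in the upper marker cluster (interaction adjusted p = 0.00417). Cdk2, Ccne2, Ccnf, Cdc25a, Cdc25c and Wee1 did not pass the threshold, with differences from -0.0312 to 0.0279.

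Cdk1, the kinase that cyclins A2 and B2 activate, was higher in 1 of the 2 marker clusters. Over all chosen mice it was 1.18-fold higher (adjusted p = 1.28e-05). In the lower marker cluster it had medians of 0.0061 in 37 high and -0.133 in 39 low livers, a difference of 0.162. The ranges there, -0.0575 to 0.343 and -0.217 to -0.0128, overlap in part. In the upper cluster the medians were 0.0998 in 38 high and 0.099 in 36 low livers, and the difference of -0.0184 was not called (adjusted p = 0.482). The clusters differed in this contrast (limma interaction, adjusted p = 3.28e-07). Cdk1 rests on 1 probe, so a trait of the probe and one of the gene cannot be told apart here.

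DNA replication genes rose as a group, by smaller steps. Of 32 tested, 24 were higher and 2 lower, with a median difference of 0.0357. The list mean ran from -0.0722 to 0.146 (median 0.0184) in the high and from -0.124 to 0.038 (median -0.0279) in the low livers, and the groups overlap. Mcm6 and Mcm2, subunits of the helicase that opens DNA, were 1.52-fold and 1.27-fold higher (adjusted p = 7.95e-19 and 5.34e-20). Asf1b, a histone chaperone, was 1.37-fold (adjusted p = 5.03e-20) and the DNA ligase Lig1 1.32-fold higher (adjusted p = 1.94e-18). Rrm2, which makes deoxynucleotides, and the clamp loader gene Rfc4 gave 0.0455 ± 0.028 and 0.0172 ± 0.0137 and passed no threshold. Tk1, a thymidine kinase, and Gins1, a helicase subunit, were the 2 lower members and fell by 0.053 and 0.0522 (adjusted p = 0.044 and 8.40e-06).

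Histone and S phase chromatin genes were higher in 6 of 10 and lower in none, among them H1f2 (1.39-fold), the tubulin gene Tubb5 (1.34-fold, with probes at 0.203 and 0.0509) and H2az1 (1.22-fold, adjusted p = 4.09e-15). Hells and Lmnb1 gave 0.0126 ± 0.009 and 0.0355 ± 0.0327 and were not called. Of 13 DNA repair genes 6 were higher and 2 lower. Fanci, a Fanconi anaemia protein, was 1.79-fold (adjusted p = 2.51e-33), the exonuclease Exo1 1.49-fold and Fanca 1.28-fold higher. The mismatch repair gene Msh6 fell by 0.0172 and the checkpoint kinase gene Chek2 was the other lower member. Brca2 and Blm were not called (adjusted p = 0.0681 and 0.482).

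Brakes of the cycle rose as well. Of 15 inhibitors and genes of the p53 response 9 were higher and none lower, with a median of 0.0556. Phlda3, a p53 target, was 1.55-fold higher (adjusted p = 2.68e-13), and the inhibitors Cdkn1c and Cdkn2c were 1.38-fold and 1.26-fold higher (adjusted p = 1.81e-09 and 1.26e-07). The stress genes Gadd45a and Gadd45b gave -0.0291 ± 0.0349 and 0.095 ± 0.0492 and passed no threshold. Of 13 transcription factors of the cycle 4 were higher (30.8%) and 3 lower (23.1%), near the 21% and 29.2% of all named genes. Rbl1, which encodes the pocket protein p107, was 1.29-fold higher (adjusted p = 1.99e-15), Myc 1.29-fold (adjusted p = 0.000742) and E2f1 1.12-fold (adjusted p = 4.69e-10), and E2f7 was the other one. Lin52, a DREAM subunit, fell by 0.0493 (adjusted p = 0.000104), and E2f6 and Rbl2 were also lower. Mybl2, the gene of B-MYB, gave -0.0107 ± 0.007 and was not called (adjusted p = 0.204), nor was Lin9, at 0.0287 ± 0.0213.

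Over the 9 cell cycle lists, 168 genes were tested, and 101 were higher, 18 lower and 49 not called. Of the 15 named genes with the smallest p, 14 are on these lists, and of the first 50, 27 are. The rise was not only in the extremes: over the 152 middle livers 44 of the 168 genes rose along the score and 3 fell, where 4.34% of all features rose and 3.39% fell. These livers entered the centring and scaling of the same score, from Ccna2 and Ccnb2 on the same arrays, so the slopes are not independent of the choice. Of the mitotic genes 26 of 39 rose there and none fell. Knstrn, Birc5, Racgap1 and Plk1 rose again (adjusted p = 1.14e-29, 3.03e-22, 2.53e-22 and 4.42e-27), and Mki67 did too (adjusted p = 0.00306). Of 1677 features called along the middle scores 1473, or 87.8%, were also called between the extremes, all in the same direction, and they make 14.2% of the calls there.

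Growth signals of the liver did not rise in step. Of 22 genes on that list 8 were higher and 6 lower, where 21% and 29.2% of all named genes were. Igfbp2, a binding protein of insulin-like growth factors made by hepatocytes, ran from -0.645 to 0.349 (median -0.158) in the high and from -0.488 to 0.554 (median 0.161) in the low livers. These ranges overlap widely, yet only 4 of 75 high livers lay above the low median, and the difference was -0.30 ± 0.0315 (adjusted p = 3.80e-15). Egfr, the receptor of epidermal growth factor, was 1.83-fold lower (adjusted p = 1.25e-11), while its ligand gene Ereg was 1.27-fold higher (adjusted p = 1.28e-08). Tnf, the inflammatory cytokine, was 1.18-fold higher (adjusted p = 2.25e-07). With the mean of the macrophage genes as a covariate 0 of the 22 were higher (1 at an unadjusted limma p under 0.05) and 2 lower, so Ereg and Tnf were not called there. Lgr5 and Yap1 gave 0.0266 ± 0.0271 and 0.021 ± 0.0138 and passed no threshold.

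Macrophage genes were higher in the high livers. Of 19 tested 17 were higher and none lower, with a median of 0.146. Their mean ran from -0.316 to 0.288 (median -0.0068) in the high, from -0.330 to 0.286 (median -0.0872) in the middle and from -0.439 to 0.121 (median -0.166) in the low livers, so the groups overlap widely. Gpnmb, a glycoprotein of lipid-laden macrophages, had medians of -0.127 and -0.689 and was 3.09-fold higher (adjusted p = 3.11e-14). Trem2, a receptor of such macrophages, was 2.23-fold, the integrin gene Itgax 1.99-fold and the adaptor gene Tyrobp 1.45-fold higher. Genes of resident Kupffer cells were unlike each other. Marco, at 0.0815 ± 0.0519, and Timd4, at 0.0052 ± 0.0182, were not called (adjusted p = 0.192 and 0.834), while Cd5l was 1.59-fold and Clec4f 1.14-fold higher (adjusted p = 9.04e-10 and 0.00471). Mmp12, a macrophage elastase, was 3.10-fold and the monocyte attractant Ccl2 2.57-fold higher (adjusted p = 1.37e-11 and 7.97e-15).

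With the mean of the macrophage list as a further covariate, 2077 features (9.57%) were higher and 2655 (12.2%) lower, and the cell cycle lists held 72 higher and 8 lower genes of 168. On the mitotic list 34 of 39 were higher, with a median of 0.136 beside 0.143 without the covariate. Replication genes were higher in 13 of 32 under this fit, inhibitors and p53 genes in 4 of 15 and histone and chromatin genes in 4 of 10, all fewer than without it. This covariate was added after the data were seen.

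Matrix genes of stellate cells, the cells that lay down scar in the liver, were higher in 12 of 14 and lower in none (median 0.132). Col1a1, the main chain of type I collagen, ran from -0.841 to 0.644 (median -0.0285) in the high and from -1.09 to 0.424 (median -0.609) in the low livers. The ranges overlap, and 73 of 75 high livers lay above the low median. It was 3.26-fold higher (adjusted p = 1.98e-20). Vim, the intermediate filament gene, was 2.02-fold, Col6a3 1.78-fold and Col1a2 1.40-fold higher, though the 2 probes of Col1a2 gave 0.292 and -0.00018 (adjusted p of the second 0.991). Timp1 and Reln gave -0.0186 ± 0.0154 and 0.0029 ± 0.0136 and were not called. With the macrophage covariate 7 of the 14 were higher. Anxa2, a membrane-binding protein, and the protease inhibitor gene Slpi were 2.57-fold higher each (adjusted p = 4.74e-22 and 5.14e-15).

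Other cell type lists were mixed. Endothelial genes were higher in 7 and lower in 2 of 12 (Vwf 1.26-fold and Lyve1 1.37-fold higher; Cdh5 and Stab2 lower), and bile duct genes were higher in 3 of 6, namely Prom1, Cftr and Epcam, at 1.31-fold, 1.25-fold and 1.21-fold. Of 14 T and NK cell genes 6 (42.9%) were higher and 4 (28.6%) lower, where 17.8% and 29.8% of all features were, so the lower share is near that of all features. With the macrophage covariate 0 were higher (0 also at an unadjusted limma p under 0.05) and 3 lower. Within the lower marker cluster 0 were higher (5 unadjusted) and 2 lower. The NK receptor gene Klrd1 and the chemokine gene Ccl5 were 1.59-fold and 1.51-fold higher, while the T cell genes Cd4 and Cd3e fell by 0.0689 and 0.0646, and Cd8b1 and Zap70 were the other lower ones. B cell genes were lower in 3 of 7 (Cd79a, Pax5 and Xbp1) and higher in none. Of 11 neutrophil genes 3 (27.3%) were higher, Camp, Ngp and Chil3, and 2 (18.2%) lower, Elane and Cxcr2, near the shares over all features, and with the macrophage covariate 0 were higher (1 at an unadjusted limma p under 0.05) and 3 lower. Red cell genes were higher in 7 and lower in 4 of 12 (3 and 1 with the macrophage covariate), with Hbb-b1 1.40-fold higher and Car1, Tfrc, Klf1 and Rhd lower. The lower share of 33.3% lies near the 29.8% over all features. Within the lower marker cluster 6 red cell genes were higher and 1 lower, but within the upper cluster 3 were higher and 5 lower. The interaction was called in 6 of the 12. In the fat cell list Fabp4 (1.81-fold) and Car3 (1.18-fold) were higher and Lep fell by 0.103 of 5, and in the exocrine pancreas list Cel and Cela2a were lower of 4. The list means overlap between the groups in all of these, and the part of cell mixture in other results was not tested beyond the macrophage covariate.

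**Figure D3:**
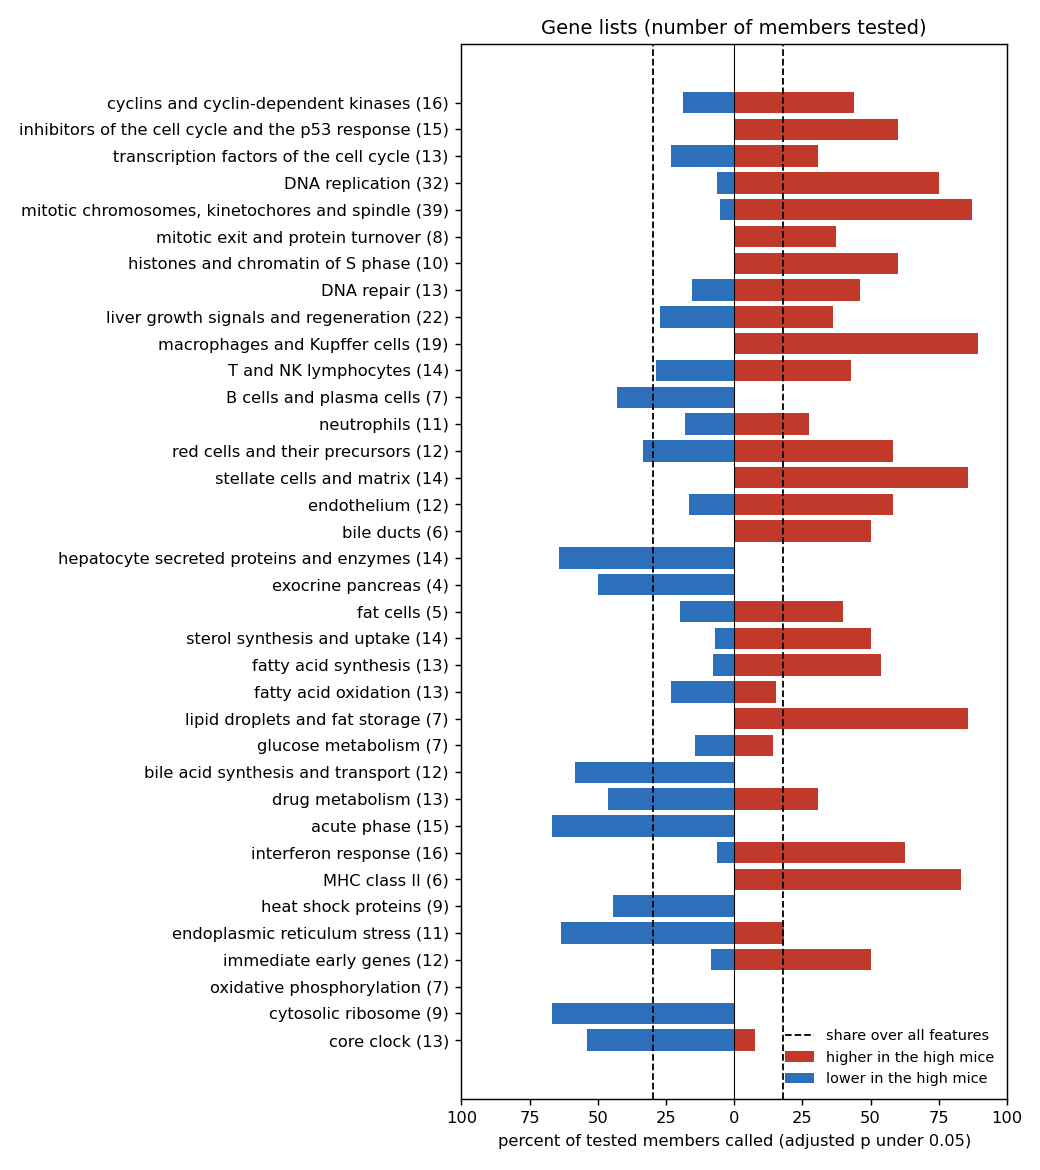
Percent of the tested members of each of 36 gene lists (number tested in brackets) that were higher (red, to the right) or lower (blue, to the left) in the high livers, limma adjusted p under 0.05; dashed lines mark 17.8% higher and 29.8% lower over all features. Mitotic, macrophage, stellate cell and fat storage lists reach furthest to the right, and acute phase, ribosome and hepatocyte lists furthest to the left.

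Genes that make and store fat were higher. Of 7 genes of lipid droplets and fat storage 6 were higher (median 0.235), and of 13 genes of fatty acid synthesis 7 were higher and 1, Pklr, lower. Scd1, the desaturase that makes monounsaturated fat, ran from -0.445 to 0.328 (median 0.0379) in the high and from -0.780 to 0.151 (median -0.24) in the low livers, and the ranges overlap. It was 2.02-fold higher (adjusted p = 5.08e-19). Fasn, the fatty acid synthase gene, was 1.81-fold, the elongase gene Elovl6 1.66-fold and the desaturase gene Fads2 1.42-fold higher. Srebf1, which encodes a regulator of these genes, and Thrsp gave 0.0563 ± 0.0273 and 0.078 ± 0.0503 and passed no threshold.

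Cidea encodes a protein that enlarges lipid droplets. It ran from -1.72 to 0.815 (median -0.869) in the high and from -1.75 to 0.592 (median -1.40) in the low livers, which overlap almost throughout. It was 3.38-fold higher (adjusted p = 4.33e-09). Fitm1, a protein of fat storage, was 1.91-fold, the fatty acid carriers Fabp4 and Cd36 1.81-fold and 1.59-fold, and the regulator Pparg 1.39-fold higher. G0s2, an inhibitor of fat breakdown, was the member not called (0.0595 ± 0.0311). With the macrophage covariate 7 of 7 fat storage and 7 of 13 synthesis genes were higher. Sterol genes were higher in 7 and lower in 1 (Stard4) of 14, led by the epoxidase gene Sqle (2.28-fold, adjusted p = 3.38e-08) and Dhcr7 (1.52-fold). Idi1 and Fdft1 gave -0.0228 ± 0.0116 and 0.0316 ± 0.0166 and were not called. Of 13 genes of fatty acid oxidation 2 were higher (Pdk4, 1.66-fold, and Vnn1) and 3 lower (Cpt2, Ppara and Acadvl), shares of 15.4% and 23.1% that lie near those over all features.

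Interferon genes were higher in 10 of 16 and lower in 1 (Mx2), with the antiviral genes Mx1 at 1.86-fold and Oasl2 at 1.58-fold and the chemokine gene Cxcl9 at 1.71-fold. Ifit1 and Ifit3 were not called. Antigen presentation by MHC class II was higher in 5 of 6 genes, with H2-Eb1 at 1.77-fold and H2-Aa at 1.48-fold. Under the macrophage covariate 3 of 16 interferon and 0 of 6 MHC class II genes were higher at an adjusted p under 0.05 (limma), and 0 of these 6 at an unadjusted p under 0.05.

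Of 14 genes of secreted proteins and enzymes of the hepatocyte 9 were lower, 5 were not called and none was higher (median -0.0549). Under the macrophage covariate 4 of the 14 were lower. Cyp2e1, an ethanol-oxidising enzyme, was 1.40-fold lower (adjusted p = 1.33e-14), the urea cycle gene Otc 1.21-fold, the tryptophan enzyme gene Tdo2 1.20-fold and Hnf4a, the hepatocyte master regulator, 1.11-fold lower. Apob and Arg1 gave -0.054 ± 0.0277 and -0.0118 ± 0.0239 and were not called. In drug metabolism 6 of 13 (46.2%) were lower and 4 (30.8%) higher, where 29.8% and 17.8% of all features were. Cyp2c37 ran from -1.01 to 0.348 (median -0.127) in the high and from -0.460 to 0.420 (median 0.169) in the low livers, and was 1.97-fold lower (adjusted p = 1.64e-15), and only 3 of 75 high livers lay above the low median. Cyp2c54 and Cyp2c50, of the same cytochrome family, were 2.37-fold and 1.83-fold lower, and probes of such near-identical genes may share signal. The glutathione transferase genes Gsta2 and Gstm1 went the other way, at 1.76-fold and 1.42-fold higher, as did Cyp2c55 (2.01-fold). The 2 probes of Gstm1 gave 0.0682 and 0.237. Cyp2b9 was called higher (adjusted p = 0.00631) but had medians of -0.0192 in the high and 0.0549 in the low livers. Its difference was -0.0358 in the lower and 0.235 in the upper marker cluster (interaction adjusted p = 0.000403). With the macrophage covariate 3 drug metabolism genes were higher and 4 lower.

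Bile acid genes were lower in 7 of 12 and higher in none, but with the macrophage covariate 2 were lower and 2 higher. Cyp7b1, an oxysterol hydroxylase, was 2.09-fold (adjusted p = 3.13e-14), the uptake carriers Slco1a1 and Slco1b2 1.82-fold and 1.30-fold, and the conjugating enzyme gene Baat 1.11-fold lower. Cyp8b1 gave 0.056 ± 0.0252 (adjusted p = 0.0571). Acute phase genes, which the liver secretes in inflammation, were lower in 10 of 15 and higher in none. Itih3 and Itih4 were 1.47-fold and 1.29-fold, the fibrinogen gene Fgg 1.22-fold and Il1rn 1.18-fold lower. With the macrophage covariate 11 of the 15 were lower. Within the upper marker cluster 9 were lower, and within the lower cluster 3 (8 at an unadjusted limma p under 0.05). Along the score of the middle livers 0 of the 15 were lower (1 unadjusted) and 1 was higher. Il1r1, the receptor of interleukin 1, was 1.89-fold lower (adjusted p = 3.73e-11), and Serpina3f, a serine protease inhibitor, 1.87-fold lower (adjusted p = 8.82e-18), with 1 of 75 high livers above the low median.

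Among further genes with large differences, Ly6d, a surface antigen, was 3.80-fold, Ubd, an ubiquitin-like modifier of inflammation, 3.79-fold, Sprr1a 3.69-fold and Mtmr11 2.52-fold higher. On the lower side stood the methyltransferase gene Nnmt (1.84-fold), the pro-apoptotic gene Bmf (1.94-fold), the steroid enzyme gene Hsd3b5 (1.95-fold), the vasopressin receptor gene Avpr1a (1.73-fold), Rnase4 (1.81-fold) and the pseudogene Serpina4-ps1 (2.36-fold). All were called by limma over the chosen mice together and had the same sign in each of the 4 blocks, where no call was required. Hsd3b5 rests on 1 of its 2 probes, with differences of -0.564 and -0.0179.

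The size of many differences depended on the marker cluster. The interaction of high against low with the cluster was called in 2831 of 21705 features (13%). In 2637 of these the difference had the larger size in the upper cluster, and in 754 the signs were opposite. In the lower cluster alone 76 of the 168 cell cycle genes were higher and 8 lower, where 8.59% and 10.3% of all features were. In the upper cluster alone the counts were 89 and 16, beside 17.3% and 26.9%. The interaction was called for 15 of these genes, beside 13.7% of all named genes. Knstrn was 3.82-fold higher in the lower and 4.01-fold higher in the upper cluster, and the interaction was not called (adjusted p = 0.800). Col1a1 was 2.30-fold against 4.69-fold higher (interaction adjusted p = 0.00585). Rad51b, a DNA repair gene, had medians of 0.144 in the high and 0.129 in the low livers of the lower cluster, and of -0.162 and -0.759 in the upper one, in ranges that overlap in both. Its difference was 0.0268 in the lower and 0.52 in the upper cluster (interaction adjusted p = 1.70e-08). Hsd3b4, a steroid enzyme gene, had medians of -0.0567 and -0.0149 in the lower and -0.0541 and 0.151 in the upper cluster (interaction adjusted p = 2.80e-08). Between mice numbered up to 212 and above, the contrast differed in 8 features (0.0369%) and in 0.037% of the named genes, and the 3 with the smallest p there were Slc15a4, Alppl2 and Cd36.

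**Figure D4:**
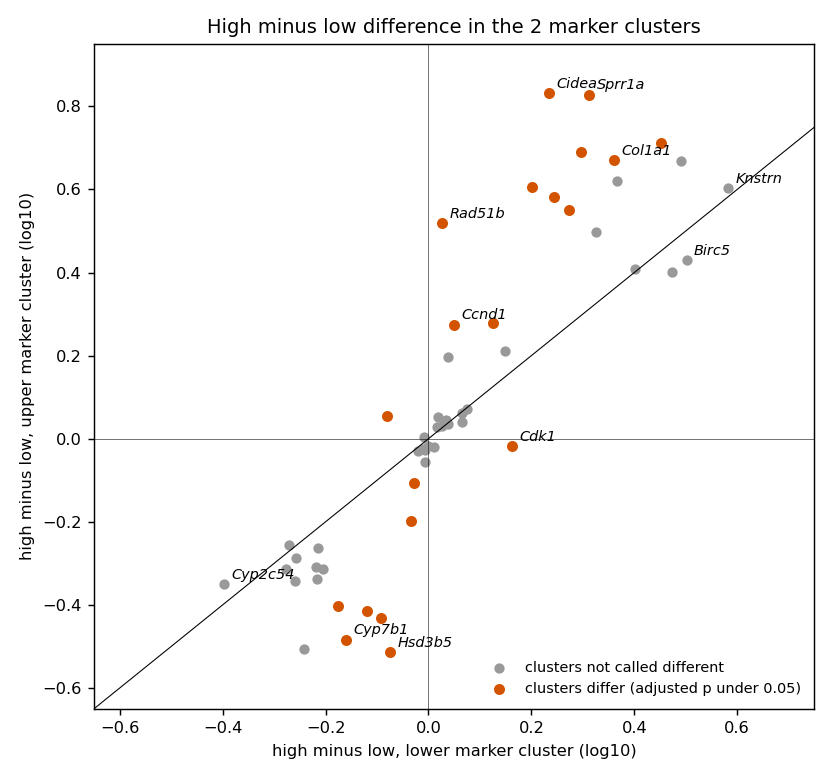
High minus low difference (log10) in the lower marker cluster (x axis, 37 high and 39 low mice) against the upper one (y axis, 38 and 36 mice) for the named genes with the largest differences, the cyclins and kinases and the genes with the strongest interactions; the diagonal marks equality, and orange points have an interaction adjusted p under 0.05 (limma). Knstrn and Birc5 lie near the diagonal, Col1a1, Cidea and Rad51b lie above it, and Cdk1 has 0.162 in the lower and -0.0184 in the upper cluster.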

How the data were processed

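Per the labels, RNA of 302 livers carried Cy3 and the common pool Cy5. The authors deposited 1 table of 23562 probes as log ratios, read here as log10 of mouse over pool. The base was inferred from Eif2s3y, whose median of 0.195 in the upper marker cluster (160 mice, 142 in the lower) lay nearer to the 0.276 that a pool of all mice gives in log10 than to the 0.917 of log2. How spots were extracted, background-corrected and normalized before deposit is not given in the sources used here. Deposited values end at -2 and 2. Probes were named through the platform annotation and a RefSeq gene table (GRCm38.p6), 12652 probes matching 10838 genes, and averaged per gene. Features with values in 90% of mice were fitted with limma 3.58.1 in R 4.3.3 (trend, robust, 4 blocks, two-sided, Benjamini-Hochberg over all features, called under 0.05), after checks on simulated data. Slopes, other filters, scalings, weights, group sizes and covariates were tried as alternatives. p-values measure the spread between these mice; shared litters are not recorded.

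The mice, the lists and the tests were chosen with earlier results of these data known. Named are the 15 genes with the largest difference in each direction among those called with 1 sign in all 4 blocks, up to 4 called and 2 uncalled genes of each of 36 lists, all cyclins and kinases, Mki67, Top2a and Pttg1, and the 3 strongest genes of each interaction. Members that complete a count of 5 or fewer were named after their values were seen, as were Cdca8, Cd5l and Clec4f.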

Additional observations from a re-analysis of the deposited data

Results flagged for a closer look

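Among the genes described here, 52 had a high minus low difference that differed between the 2 marker clusters by the limma interaction, at an adjusted p under 0.05 over all features. Each value is the difference in the upper minus that in the lower cluster, in log10. No sex was assigned to the clusters, and no cause was tested.

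Among cell cycle genes the contrast was lower in the upper cluster for Cdk1 (-0.181), Plk4 (-0.101), Cdk6 (-0.0771), Bub1 (-0.0754), Hells (-0.0618), Prc1 (-0.0324) and Msh6 (-0.0282), and it was higher there for Ccnd1 (0.224), Tubb5 (0.159), Cdc25a (0.134) and Cdkn2c (0.097). It was also higher there for the repair gene Rad51b (0.491).

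Several matrix genes, some macrophage genes (4 of 19 on that list had a called interaction) and others had the larger rise in the upper cluster, with Sprr1a at 0.515, Mtmr11 at 0.405, Gpnmb at 0.394, Ccl2 at 0.338, Col1a1 at 0.310, Anxa2 at 0.276, Ly6d at 0.261, Trem2 at 0.233, Col6a3 at 0.217, Vim at 0.183, Klf6 at 0.182 and Col1a2 at 0.114. The NK receptor gene Klrd1 did so as well, at 0.247. Fat genes also had higher contrasts there, with Cidea at 0.597, Fabp4 at 0.182, Cd36 at 0.153 and Pparg at 0.121. Cyp2b9, with opposite signs in the clusters, was at 0.271 and Vnn1 at 0.204, the latter with -0.0080 in the lower and 0.196 in the upper cluster.

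For genes of metabolism and some others the contrast was lower in the upper cluster. The values were -0.440 for Hsd3b5, -0.338 for Slco1a1, -0.324 for Cyp7b1, -0.295 for Nnmt, -0.226 for Bmf, -0.164 for Hsd3b4, -0.148 for Slco1b2, -0.104 for Otc, -0.0958 for Tdo2, -0.0633 for Baat, -0.0398 for Hnf4a and -0.0269 for Pklr. Blood and immune cell genes were likewise lower there, by -0.198 for Hbb-b1, -0.177 for Car1, -0.0607 for Cd3e, -0.0551 for Rhd, -0.0436 for Elane, -0.040 for Cd8b1 and -0.0327 for Pax5. Lep was at -0.151 and Rpl7 at -0.0315.

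Between mice numbered above 212 and those up to it, 4 genes of the text differed in the contrast. The difference in the higher minus that in the lower range was 0.232 for Cd36, 0.151 for Slc15a4, 0.0991 for Alppl2 and -0.165 for Xbp1. Slc15a4 went from -0.0227 in the lower range to 0.128 in the higher, and Alppl2 from -0.0574 to 0.0417, so both changed sign.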

How the results depend on the processing

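No paired analysis was possible because the labels give 1 group and their numbers name mice. The 234 genes of the naming rule (160 called) were fitted under 21 other settings. Among called genes 22 values had the opposite sign and 449 kept the sign and lost the call, while 121 values of other genes gained one. Turns of sign in genes not called were not counted, such as Alas2 (0.0348 over all chosen mice, -0.0715 in the upper cluster). No sign of a called gene turned under another filter, scaling, cyclin, group size, array weight or array spread setting. The cause was not tested. Within single blocks the counts of higher and lower features were 919 and 968, 907 and 734 (lower cluster), 2942 and 4472, and 2520 and 3341 (upper cluster), with fewer mice in each. The lower cluster as a whole gave 1864 and 2247. Over the middle mice 942 and 735 features were called and with the macrophage covariate 2077 and 2655, both chosen after seeing the data. Between number ranges 36 features differed after array scaling, 28 after quantile normalization and 3 without the 15 widest arrays. Block 1 holds mice numbered up to 212, and the turns listed next are those of called genes. Opposite signs came within block 1 of the lower cluster for Npas2 (0.0010) and Slc15a4 (-0.0365), within its block 2 for Baat (0.0041), Cd79a (0.012), Msh6 (0.0026), Pax5 (0.0018) and Per1 (0.00043), and within block 1 of the upper cluster for Car3 (-0.061), Cdk1 (-0.0028), Hbb-b1 (-0.0209) and Slc15a4 (-0.0090). Cdk1 was at -0.0415 within block 2 of the upper cluster and at -0.0184 in that cluster as a whole. Slopes per unit of score over the middle mice turned for Ccnd3 (-0.00032), Dbp (0.0011), Dusp1 (-0.017), Gys2 (0.0056), Myc (-0.0119), Pdk4 (-0.0029) and Slc15a4 (-0.0031). The macrophage covariate turned H2-DMb2 (-0.0041) and Ngp (-0.0139). Mean log ratios to a pool give no depth or level over background, and differences under about the 1.1-fold median of the calls rest on the number of mice.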

Other observations

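Lists outside the comparisons above held further lower members in the high livers. Ribosomal protein genes, which build the cytosolic ribosome, were lower in 6 of 9 and higher in none, by small steps, with Rps18 1.11-fold, Rpl7 1.08-fold, Rps6 1.08-fold and Rplp0 1.07-fold lower, while Rpl13 and Rps3 gave 0.0063 ± 0.0091 and -0.0065 ± 0.0181. Genes of the endoplasmic reticulum stress response were split. The folding helpers Dnajc3 and Hsp90b1 were 1.27-fold and 1.21-fold lower, 7 of 11 in all, and the stress factors Atf3 and Ddit3 1.46-fold and 1.26-fold higher. Cytosolic and mitochondrial chaperones fell in 4 of 9 (44.4%), where 29.8% of all features were lower. The 4 were Hspe1, Hsph1, Dnaja1 and Hsp90aa1, lower by 0.0753, 0.0719, 0.0577 and 0.05. Of the 4 probes of Dnaja1, 1 was not called, at -0.0312 (limma adjusted p = 0.388). Along the score of the middle livers 0 of the 9 chaperones were called (4 lower at an unadjusted limma p under 0.05). Immediate early genes were higher in 6 and lower in 1 (Junb) of 12, with Dusp1 at 1.54-fold, Klf6 at 1.44-fold and Jun at 1.41-fold. Within the upper marker cluster 6 of these 12 were higher, and within the lower cluster 2. After array scaling, or after quantile normalization, 4 were higher. Along the score of the middle livers 0 were called (0 higher and 1 lower at an unadjusted limma p under 0.05), with a median slope of -0.0126. With the mean of the macrophage genes as a covariate, 2 of the 12 were higher, 0 of the 9 chaperones were lower by limma (0 also at an unadjusted p under 0.05), and 5 of the 11 stress genes and 5 of the 9 ribosomal ones were lower. The means of the immediate early list ran from -0.262 to 0.590 in the high and from -0.287 to 0.405 in the low livers.

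Core clock genes were lower in 7 of 13 (53.8%) and higher in 1 (Arntl), where 29.8% and 17.8% of all features were. They were lower in 3 with the macrophage covariate. Within the upper marker cluster 5 were lower and 2 higher, and within the lower cluster 1 was lower (3 at an unadjusted limma p under 0.05). Along the score of the middle livers 0 were called (2 lower unadjusted). Dbp was 1.11-fold, Per3 1.09-fold and Per1 1.08-fold lower. Glucose genes had 1 higher member (G6pc, 1.17-fold) and 1 lower (Gys2, 1.21-fold) of 7. Of 7 oxidative phosphorylation genes 0 were called at an adjusted p under 0.05 by limma and 0 at an unadjusted p under 0.05. The marker clusters differed in 3 of the 7 by the interaction, and within the upper cluster 5 were lower (median -0.0341), while within the lower cluster 0 were called (1 higher at an unadjusted p under 0.05, median 0.0061). Over both clusters Atp5j and Cox7b gave -0.0209 ± 0.0113 and -0.0188 ± 0.0159.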
